A study of Mus musculus with 4 samples.

Results

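The proteasome subunit genes were taken as every gene whose symbol starts with Psma, Psmb, Psmc or Psmd followed by a number. All 39 genes of that form in the RefSeq mouse gene table were measured, among 18194 genes tested, and each is given at the probe set with the highest mean over the 4 arrays. They comprise 8 core alpha genes, 7 constitutive core beta genes, the 3 immunoproteasome genes Psmb8, Psmb9 and Psmb10, the thymus-restricted beta gene Psmb11 and 20 genes of the regulatory particle. The last are all the Psmc and Psmd genes, and include Psmd5, Psmd9 and Psmd10, which encode assembly chaperones and not subunits of the finished particle. The samples were 2 arrays labelled Alox15-/-, a genotype named for loss of the arachidonate 15-lipoxygenase gene, and 2 labelled WT. All came from C57BL/6 (B6) mice aged 8 weeks, and held bone marrow cells sorted as lineage-negative and positive for both c-Kit and Sca-1. The labels call the cells haematopoietic stem cells and the replicates biological, but do not say which animals or pools they came from, so p-values measure only the spread between these arrays. The question of the comparison is how the expression profile of these cells differs between the genotypes.

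The proteasome is the barrel-shaped protease that degrades ubiquitin-tagged proteins in the nucleus and cytosol. Its core is built from rings of alpha subunits, which gate the channel, and rings of beta subunits, of which Psmb5, Psmb6 and Psmb7 cut peptide bonds. In blood cells, and elsewhere after interferon signalling, Psmb8, Psmb9 and Psmb10 can replace these in new particles, giving the immunoproteasome that supplies peptides for class I antigen presentation. The regulatory particle caps the core: its Psmc ATPases unfold substrates and its Psmd subunits bind and strip ubiquitin. Blood stem cells are known to keep protein synthesis low and to depend on protein quality control.

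The catalytic genes are the ones on which the comparison of constitutive and inducible subunits turns, so the DNA before their start sites is shown for the exchange partners Psmb8 and Psmb5, and Psmb9 and Psmb6. Each stretch is the 200 bases before the RefSeq start in build GRCm38.p6, read on the gene's strand. Capitals mark matches on either strand to TGACNNNGC, the core of the antioxidant response element bound by NRF1 and NRF2, to TTCNNNGAA, the gamma-activated site, or to CCAAT. The interferon-stimulated response element was also searched, as GAAA, any 2 bases and GAAA again, and has no match in these stretches.
Psmb8, chr17:34197995-34198194, plus strand: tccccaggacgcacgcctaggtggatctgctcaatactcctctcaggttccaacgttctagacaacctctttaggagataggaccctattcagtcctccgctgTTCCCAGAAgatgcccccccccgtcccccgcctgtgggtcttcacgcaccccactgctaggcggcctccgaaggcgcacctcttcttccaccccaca
Psmb5, chr14:54617996-54618195, minus strand: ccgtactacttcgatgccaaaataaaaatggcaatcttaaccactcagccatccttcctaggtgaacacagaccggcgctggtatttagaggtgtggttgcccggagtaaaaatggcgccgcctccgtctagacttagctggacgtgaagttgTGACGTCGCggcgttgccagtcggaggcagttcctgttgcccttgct
Psmb9, chr17:34187331-34187530, minus strand: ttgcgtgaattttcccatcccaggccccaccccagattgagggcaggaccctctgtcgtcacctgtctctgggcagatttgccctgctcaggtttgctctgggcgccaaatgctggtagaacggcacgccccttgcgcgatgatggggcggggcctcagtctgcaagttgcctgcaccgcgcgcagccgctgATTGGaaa
Psmb6, chr11:70525157-70525356, plus strand: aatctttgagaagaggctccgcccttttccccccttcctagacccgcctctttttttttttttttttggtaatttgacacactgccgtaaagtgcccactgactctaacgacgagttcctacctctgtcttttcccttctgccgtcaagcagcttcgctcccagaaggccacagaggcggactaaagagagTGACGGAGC

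The gamma-activated site match of Psmb8 begins 97 bases before its start, the antioxidant element matches of Psmb5 and Psmb6 begin 47 and 9 bases before theirs, and the CCAAT match of Psmb9 lies 8 bases before its start, on the other strand. The promoter table held 34 windows of 32 members, each of 300 bases, and none for the other 7 members. In those windows the antioxidant element was found for Psmb5, Psmb6, Psmc6, Psmd9 and Psmd12, in 14.71% of member windows and 12.39% of all windows. CCAAT was found in 38.24% of member windows and 37.41% of all windows, TTCNNNGAA in 5.88% and 8.30%, and the interferon-stimulated response element in 8.82% and 3.44%. The last of these was found in 3 of the 34 windows, those of Psmb3, Psmd4 and Psmd9, none of them an immunoproteasome gene. A match is a description of letters and not a bound site, and a lack of a match does not show that a gene has no such site. Psmb9 and Tap1, a peptide transporter gene, are transcribed away from each other, from starts 226 bases apart.

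The check of the genotype went against the label. Alox15 read 10.68 and 10.75 on the arrays labelled Alox15-/-, and 4.63 and 4.35 on the WT arrays, where it lay below the highest of 27 bacterial control probe sets. Taking that control as the WT level gives a bound of at least 53.5-fold higher in the group labelled Alox15-/-, which was not tested. The difference of the values as read was 6.22, with limma adjusted p = 0.00133. The sources used here do not say whether the probe set lies in the deleted part, and an exchange of the group labels was not tested. Every direction below is that of the arrays as labelled, and would reverse if the labels were exchanged. The gate marker Kit read 10.34 and 10.23 on the arrays labelled Alox15-/- and 10.63 and 10.48 on the WT arrays. Of 5 measured lineage markers, Cd3e and Ms4a1 were under that control on each array, while Itgam, Cd8a and Cd4 were above it on each. Cd8a was higher without overlap on the arrays labelled Alox15-/-, at 0.54 (0.535 before rounding), with limma unadjusted p = 0.0866. Itgam and Cd4 were lower there without overlap, at -0.51 (limma unadjusted p = 0.0210) and -0.18. Of the 5 markers, 2 were higher without overlap and 2 lower, against 21.4% and 17.1% of all genes. Sca-1 (Ly6a) had no probe set of its own among those used. The arrays correlated across probe sets at 0.990 within the group labelled Alox15-/-, at 0.988 within WT and at 0.986 to 0.988 between groups.

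Most proteasome subunit genes read slightly higher on the arrays labelled Alox15-/-, and none did so past the adjusted threshold. The median difference over the 39 genes was 0.09 on the log2 scale, or 1.06-fold, against 0.02 over all 18194 genes tested. Of the members, 31 had a difference above 0 and 8 below, against 53.8% of all genes above 0. No member passed limma's threshold of 0.05 after adjustment over all genes (the lowest adjusted p was 0.503), where 0.0055% of all genes did, which is Alox15 alone. At an unadjusted p under 0.05 there were 3 higher members and 0 lower, against 4.2% of all genes higher and 3.57% lower. The 2 values labelled Alox15-/- both lay above the 2 WT values for 18 members (46.2%), against 21.4% of all genes, and both lay below them for 1 member, against 17.1%. Differences were small: 22 members were within 0.1 of 0 and 33 within 0.2. The members were brighter than most genes, and over the 6896 genes with a mean of at least 8 the median difference was 0.00063, with 50.1% above 0, 21.9% without overlap higher and 21.6% lower. For the 36 members in that range the median was 0.09, with 29 above 0 and 17 without overlap higher. These genes share arrays and are not independent replicates, and the counts describe the set without testing it.

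**Figure D1:**
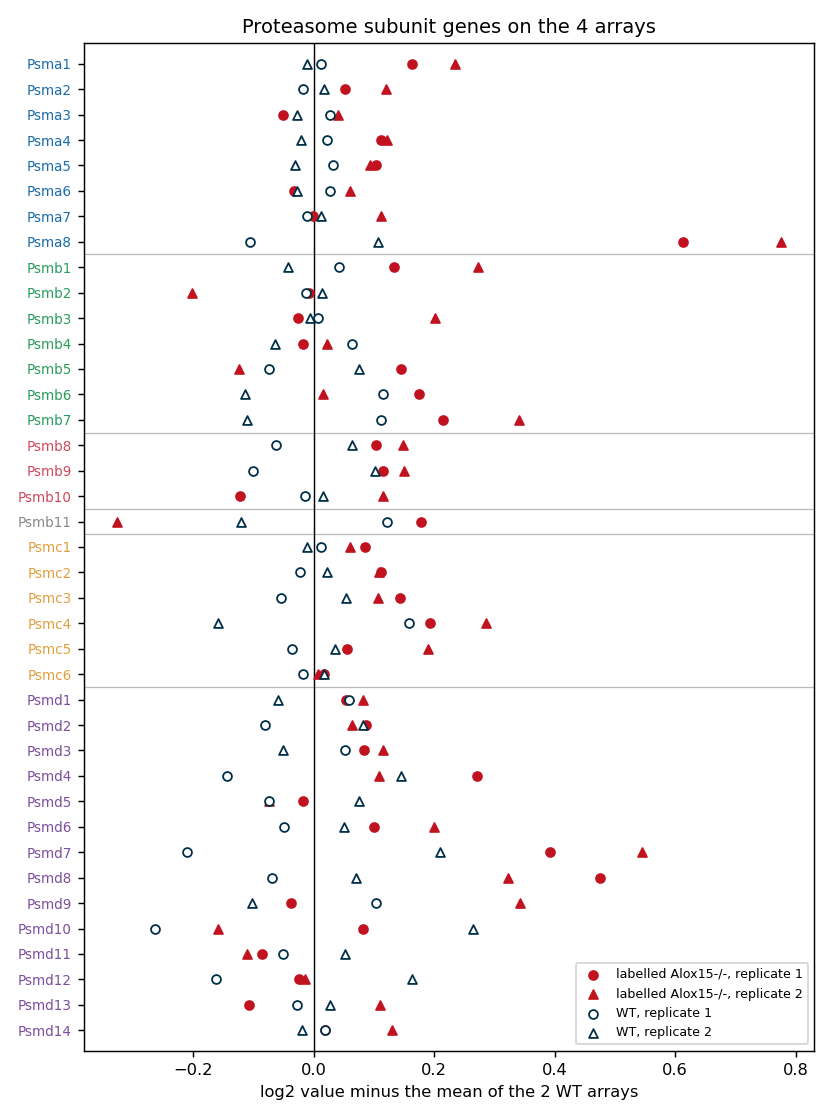
Log2 value of each of the 39 proteasome subunit genes on the 4 arrays, relative to the mean of the 2 WT arrays, with genes down the page by class. Filled red symbols (labelled Alox15-/-) lie to the right of both open symbols (WT) for 18 genes, among them Psma8, Psmd7 and Psmd8.

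**Figure D2:**
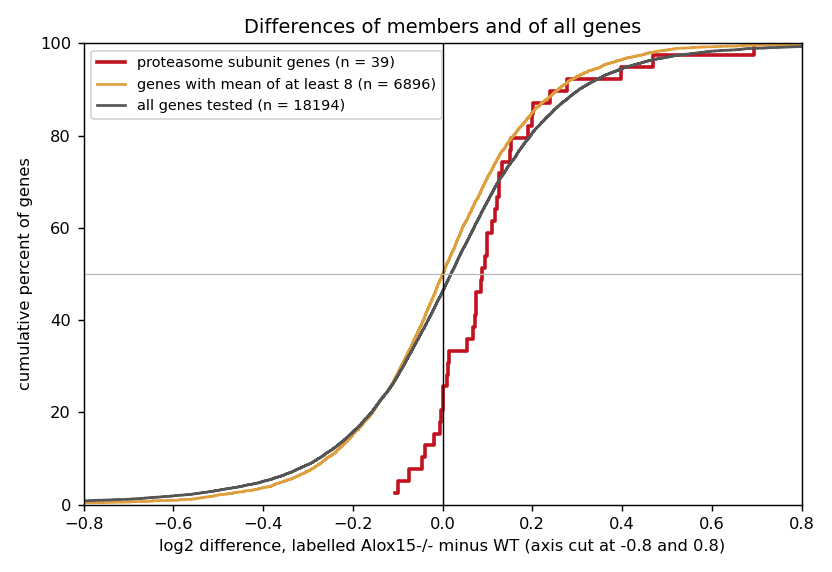
Cumulative percent of genes against the log2 difference, labelled Alox15-/- minus WT, for the 39 proteasome subunit genes, for 6896 genes with a mean of at least 8 and for all 18194 genes. The members' curve crosses 50% at 0.09, to the right of the other curves, and has no value below -0.11.

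Of the alpha subunits, 7 of 8 genes had a difference above 0, with a median of 0.09. Psma8, which encodes an alpha subunit that in testis takes the place of Psma7, had the largest difference of all members. It read 7.62 and 7.78 on the arrays labelled Alox15-/-, and 6.90 and 7.11 on the WT arrays. The groups did not overlap, and the difference was 0.69 ± 0.15 (SE, n = 2 each), 1.62-fold, with limma unadjusted p = 0.00472 and adjusted p = 0.503. Psma8 has 1 probe set, whose mean of 7.35 over the 4 arrays was the lowest of the members apart from Psmb11. A share of other transcripts in its signal was not tested. Psma7, its counterpart in other tissues, read 11.82 and 11.93 on the arrays labelled Alox15-/- and 11.81 and 11.83 on the WT arrays, which overlap. Psma1 read 10.48 and 10.55 on the arrays labelled Alox15-/- and 10.33 and 10.31 on the WT arrays. The difference was 0.20 without overlap (adjusted p = 0.746 by limma). Its dimmer other probe sets gave 0.05, -0.04 and -0.105, the last under the bacterial control limit on each array. Psma2, Psma4 and Psma5 also did not overlap, with differences of 0.09, 0.12 and 0.10. Psma3 and Psma6 overlapped, at -0.0056 and 0.01. Without Psma8 the alpha median was again 0.09.

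Among the constitutive beta subunits the median difference was 0.09, with 6 of 7 above 0. Psmb7, the trypsin-like subunit, had the largest, reading 10.55 and 10.67 on the arrays labelled Alox15-/- and 10.44 and 10.22 on the WT arrays. Its groups did not overlap, and the difference was 0.28 ± 0.15 (SE, n = 2 each), with limma adjusted p = 0.703. Without WT replicate 2 it was 0.17. Psmb1, a non-catalytic subunit, read 9.95 and 10.09 on the arrays labelled Alox15-/- and 9.86 and 9.78 on the WT arrays, a difference of 0.20. The other catalytic genes overlapped between the groups. Psmb5, the chymotrypsin-like subunit, read 9.78 and 9.51 on the arrays labelled Alox15-/- and 9.56 and 9.71 on the WT arrays, a difference of 0.01. Psmb6, the caspase-like subunit, read 10.50 and 10.34 on the arrays labelled Alox15-/- and 10.44 and 10.21 on the WT arrays, a difference of 0.10 (0.095 before rounding). The non-catalytic Psmb2 gave -0.11, Psmb3 0.09 and Psmb4 0.0013. Psmb11, which is known from cortical thymic epithelium, read 4.91 and 4.41 on the arrays labelled Alox15-/- and 4.86 and 4.61 on the WT arrays. It was the only member under the bacterial control limit on each of the 4 arrays.

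The immunoproteasome genes were above the bacterial controls on every array, and none passed the adjusted threshold. Their median difference was 0.13, with 2 of 3 above 0. Psmb8 read 11.97 and 12.02 on the arrays labelled Alox15-/- and 11.81 and 11.93 on the WT arrays. The difference was 0.13, with a 95% limma interval of -0.21 to 0.46 and adjusted p = 0.849. Psmb9 read 11.999 and 12.03 on the arrays labelled Alox15-/- and 11.78 and 11.99 on the WT arrays, a difference of 0.13 with an interval of -0.22 to 0.49. Both genes were without overlap, and WT replicate 1 was the low array. Without it the differences were 0.06 for Psmb8 and 0.03 for Psmb9. Psmb10 read 9.46 and 9.70 on the arrays labelled Alox15-/- and 9.57 and 9.60 on the WT arrays, which lie between them, at -0.0038.

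Probe sets differ in brightness for the same amount of RNA, so levels of different genes were not ranked, and for the exchange partners only the change of their log2 difference between arrays was read. Psmb8 minus Psmb5 was 2.20 and 2.51 on the arrays labelled Alox15-/-, and 2.25 and 2.23 on the WT arrays, a change of 0.12. Psmb9 minus Psmb6 was 1.496 and 1.69 on the arrays labelled Alox15-/-, and 1.34 and 1.77 on the WT arrays, a change of 0.04. Both pairs overlapped between the groups. Psmb10 minus Psmb7 was -1.09 and -0.98 on the arrays labelled Alox15-/-, and -0.88 and -0.62 on the WT arrays, a change of -0.28 without overlap, where Psmb10 alone gave -0.0038 and Psmb7 alone 0.28. The two-sided exact permutation test gave p = 1 for the first pair and for the second and p = 0.333 for the third, the smallest p that 2 against 2 arrays allow, and 1 for each after adjustment over the 3 pairs.

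**Figure D3:**
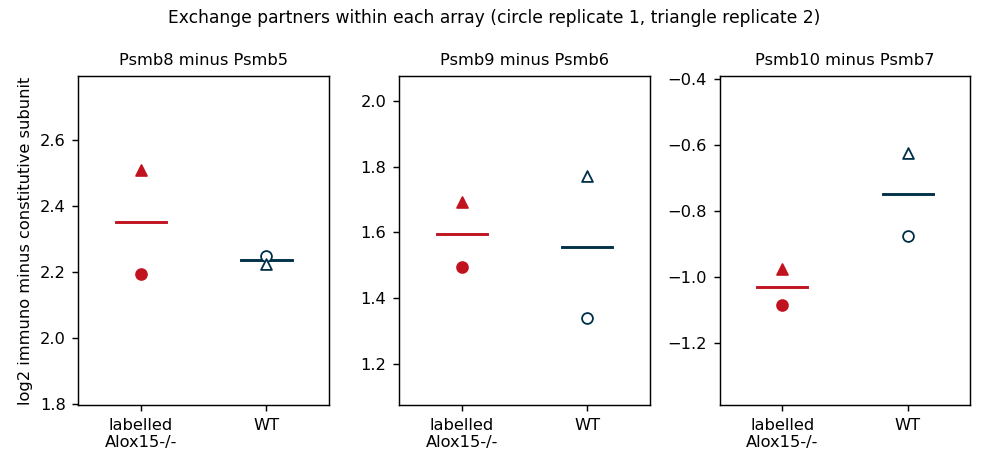
Log2 value of each immunoproteasome gene minus that of the constitutive gene it replaces, per array, with the group mean as a bar; each panel spans 1 log2 unit. The groups overlap for Psmb8 minus Psmb5 and for Psmb9 minus Psmb6, and are apart for Psmb10 minus Psmb7, at -1.03 in the arrays labelled Alox15-/- and -0.75 in WT.

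The regulatory particle genes, counted with the 3 assembly chaperone genes, had a median difference of 0.09 over 20 genes and 16 above 0. All 6 ATPase genes had differences above 0, from 0.01 for Psmc6 to 0.24 for Psmc4, with a median of 0.12. Psmc4 read 10.42 and 10.51 on the arrays labelled Alox15-/- and 10.38 and 10.06 on the WT arrays, and its difference was 0.08 without WT replicate 2 and 0.40 without WT replicate 1. Psmc3 read 10.69 and 10.66 on the arrays labelled Alox15-/- and 10.50 and 10.60 on the WT arrays. The groups did not overlap for 5 of the 6, Psmc6 being the exception, where 21.4% of all genes were without overlap higher, and limma's adjusted p was 0.757 or more for each.

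The lid, which removes ubiquitin chains, held both remaining genes with an unadjusted p under 0.05. Psmd7, the partner of the deubiquitinase Psmd14, read 9.88 and 10.03 on the arrays labelled Alox15-/- and 9.28 and 9.70 on the WT arrays. The difference was 0.47 ± 0.19 (SE, n = 2 each), with limma unadjusted p = 0.0493 and adjusted p = 0.642, and it was 0.26 without WT replicate 1. Its other probe sets gave 0.44 with overlap and 0.27 without. The first of these read 7.15 and 6.35 on the arrays labelled Alox15-/- and 6.48 and 6.14 on the WT arrays. Psmd8, a lid subunit needed for the last step of lid assembly in yeast, read 8.998 and 8.85 on the arrays labelled Alox15-/- and 8.45 and 8.59 on the WT arrays. The difference was 0.40 ± 0.14 (SE, n = 2 each), with limma unadjusted p = 0.0333 and adjusted p = 0.630. Psmd14 itself read 11.81 and 11.92 on the arrays labelled Alox15-/- and 11.81 and 11.77 on the WT arrays, at 0.07 and with overlap. Psmd6 and Psmd3 were without overlap at 0.15 and 0.10. Psmd11, a lid subunit, was the 1 member without overlap that read lower, at 10.79 and 10.77 on the arrays labelled Alox15-/- and 10.83 and 10.93 on the WT arrays, a difference of -0.10. Psmd12 and Psmd13 overlapped, at -0.02 and 0.0013.

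The base scaffold genes Psmd1 and Psmd2 gave 0.07 and 0.075, and the ubiquitin receptor gene Psmd4 gave 0.19, reading 10.32 and 10.15 on the arrays labelled Alox15-/- and 9.90 and 10.19 on the WT arrays. The Psmd4 difference was 0.04 without WT replicate 1 and 0.33 without WT replicate 2. All 3 overlapped. The genes Psmd5, Psmd9 and Psmd10 encode chaperones that help assemble the base and are not part of the finished particle. They gave -0.05, 0.15 and -0.04, all with overlap, a median of -0.04. Psmd10 had the largest standard error of the 39 members, reading 9.63 and 9.39 on the arrays labelled Alox15-/- and 9.29 and 9.82 on the WT arrays.

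**Figure D4:**
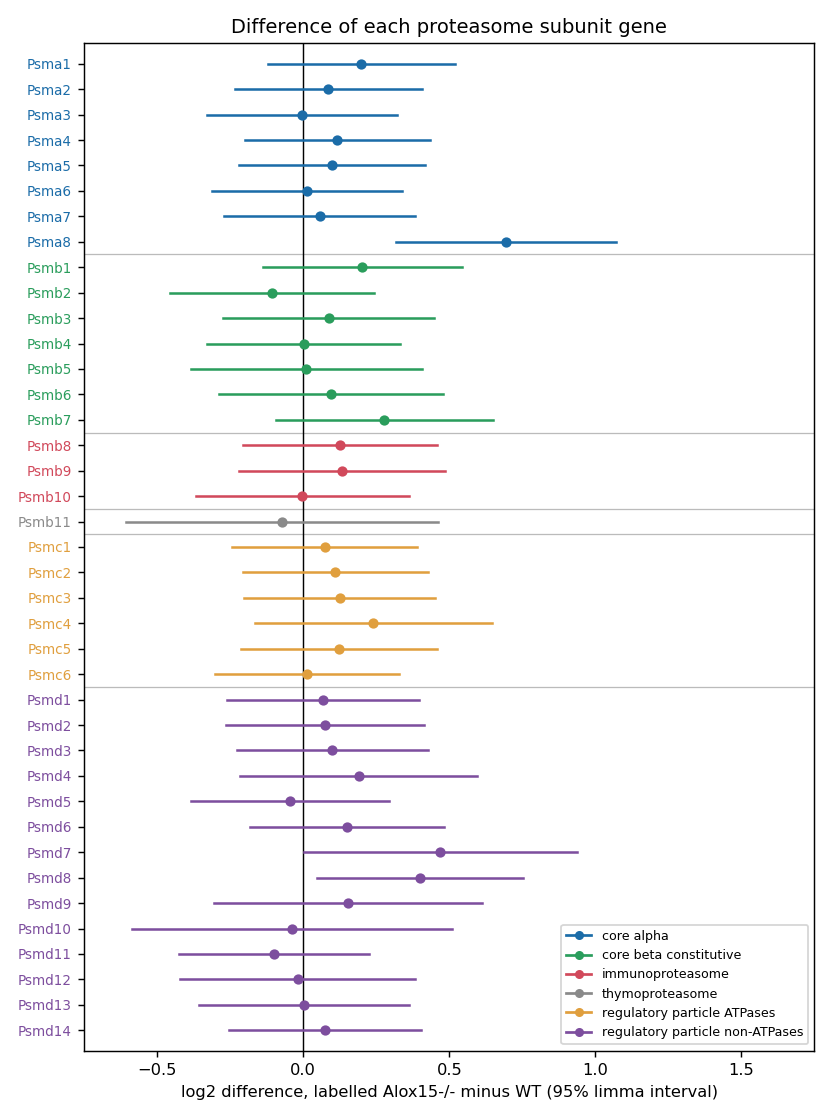
Log2 difference, labelled Alox15-/- minus WT, of each proteasome subunit gene with its 95% limma interval, coloured by class. The intervals lie above 0 for 3 genes, Psma8, Psmd7 and Psmd8, and hold 0 for the other 36, and 1 of the 39 reaches a difference of 1.

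How far a difference could reach was set by the 4 arrays. The 95% limma intervals reached 0.32 to 0.55 to either side of the difference. Apart from Psma8 and Psmb11 they ran from -0.59 at the lowest bound to 0.94 at the highest, so a 2-fold difference (1 on the log2 scale) lay outside the interval of each of these 37 genes. The median gap between the members' replicates was 0.09 on the arrays labelled Alox15-/- and 0.10 in WT. These gaps were about the size of the members' median difference between the groups, 0.09. Over all genes, which include dimmer ones, the gaps were 0.15 and 0.19, and gaps of genes of like brightness were not computed. Averaged over the members and taken relative to each gene's mean, the arrays labelled Alox15-/- stood at 0.04 and 0.06 and the WT arrays at -0.07 and -0.04. Class means per array separated the groups for the alpha, constitutive beta, ATPase and non-ATPase genes. For the immunoproteasome genes they overlapped, at -0.01 and 0.10 on the arrays labelled Alox15-/- and -0.10 and 0.02 on the WT arrays. Differences of these class means were 0.16 for alpha (0.08 without Psma8), 0.08 for constitutive beta, 0.08 for immunoproteasome, 0.11 for ATPase and 0.11 for non-ATPase genes, and no test between classes was run.

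Of the 39 members, 20 had more than 1 probe set, and 7 of these had probe sets of both signs. Among the 39 probe sets not used, 32 exceeded every bacterial control on each array, and 25 of the 32 had a difference above 0. For Psmb8 a dim second probe set gave 0.31. For Psmd2 the second gave -0.23, under the control limit on each array, and for Psmd11 the 7 others ran from -0.08 to 0.39. For Psmd13 a probe set above the control limit on each array gave -0.35, lower without overlap. The probe set used for Psmd13 gave 0.0013, and its remaining ones gave 0.01 and -0.13, the last under the limit on each array. Of the probe sets used, 3 carry the suffix x and 1 the suffix s, by which the manufacturer marks probes shared with other transcripts, those of Psma6, Psmb4, Psmc2 and Psmd11. Proteasome genes have processed pseudogenes, and their share in these signals was not tested.

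Alox15 lies on chromosome 11, as do 6 members. Psmb6 is the nearest, 7 measured genes away in gene order, and its values are given above. The other 5 are 183 or more measured genes away. The 6 had a median of 0.09 with 4 above 0, from -0.10 for Psmd11 to 0.12 for Psmc5. The 1452 chromosome 11 genes had a median of 0.02, with 55.0% above 0. The 33 members elsewhere also had a median of 0.09, with 27 above 0, against a median of 0.02 and 53.8% above 0 over all genes tested.

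Genes that serve the proteasome were read from lists written for this comparison. The 5 listed assembly chaperone genes of the core all had differences above 0, against 53.8% of all genes, with a median of 0.12. Of the 3 base chaperone genes given above, which are members and not in this list, 1 was above 0 and 2 below. Psmg3, which helps assemble the alpha ring, read 8.22 and 8.16 on the arrays labelled Alox15-/- and 7.86 and 7.85 on the WT arrays, a difference of 0.34 (limma unadjusted p = 0.0415, adjusted p = 0.633). Pomp, the maturation factor of the core, gave 0.06 without overlap, and Psmg1 and Psmg2 gave 0.14 and 0.12 with overlap. Of 4 measured activator and inhibitor genes, 3 were above 0. Psme4, an activator cap for nuclear proteasomes, gave 0.33, reading 8.90 and 8.44 on the arrays labelled Alox15-/- and 8.35 and 8.32 on the WT arrays. Psmf1 and Psme3 gave 0.14 and 0.08, and the interferon-inducible Psme1 gave -0.04.

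Medians of 3 further ubiquitin pathway and regulator lists with more than 1 gene tested were below 0. They were -0.005, -0.09 and -0.02, the first and last close to 0. Of 9 measured proteasome-associated receptor and deubiquitinase genes, 4 were above 0 and 5 below, with a median of -0.005. Ecpas, a proteasome adaptor, gave -0.25, the ubiquitin ligase Ube3c 0.26, the lid subunit gene Sem1 0.15 and the shuttle factor Ubqln1 0.14. Of 8 genes of the p97 segregase, which extracts ubiquitinated proteins from complexes, 3 were above 0 and the median was -0.09. Its cofactors Nploc4, Faf2 and Ufd1 had no overlap, at -0.22, -0.24 and -0.16, and Ubxn1 gave -0.18 with overlap. Of the 8 genes, 37.5% were lower without overlap and 0 higher, against 17.1% and 21.4% of all genes. Of 7 transcriptional regulators of proteasome genes 3 were above 0, with a median of -0.02. Stat3 gave -0.18, Nfyb -0.15, Nfya 0.14 and Nfe2l2, which encodes NRF2, 0.09. Nfe2l1, which encodes NRF1, the activator of subunit genes when the proteasome is impaired, read 8.75 and 8.84 on the arrays labelled Alox15-/- and 8.81 and 8.86 on the WT arrays, at -0.04. Of 6 ubiquitin and activating enzyme genes listed 1 was tested, Uba6 at -0.13. No gene of these lists passed limma's adjusted threshold.

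Interferon response genes, which share inducers with Psmb8, Psmb9 and Psmb10, had mostly negative differences, and none passed the adjusted threshold. Of 18 measured genes 13 had a difference below 0, the median was -0.16, and 9 of the 18 were without overlap lower, against 17.1% of all genes, with 1 without overlap higher. The interferon signalling factor Irf9 read 8.19 and 8.21 on the arrays labelled Alox15-/- and 8.76 and 8.62 on the WT arrays, a difference of -0.49 (limma unadjusted p = 0.0119, adjusted p = 0.575). Irgm1 gave -0.37, Stat2 -0.26 and the chemokine gene Cxcl10 0.68. The list's mean relative to all arrays was -0.08 and -0.02 on the arrays labelled Alox15-/- and -0.03 and 0.13 on the WT arrays, so the groups overlapped and WT replicate 2 was the high array. Class I antigen processing genes had a median of 0.04, with 5 of 9 above 0. Canx, Tap2 and Pdia3 gave 0.26, 0.28 and 0.26 without overlap, and Tapbp gave -0.09. Of the 9, 33.3% were higher without overlap and 11.1% lower, against 21.4% and 17.1% of all genes. Tap1, which shares its start region with Psmb9, read 10.20 and 10.28 on the arrays labelled Alox15-/- and 10.25 and 10.32 on the WT arrays, at -0.04.

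The mean of the mature neutrophil markers also separated the groups. Of 11 measured, 10 had differences above 0, against 53.8% of all genes. An unadjusted limma p under 0.05 was reached by 4 higher markers, against 4.2% of all genes, and by 1 lower, Itgam, against 3.57%. The values overlapped between the groups for 4 of the 11. Of the others, 6 were higher without overlap, against 21.4% of all genes, and 1 was lower, against 17.1%. The median was 0.59, and the summed log2 level was 74.2 and 70.9 on the arrays labelled Alox15-/- and 60.9 and 68.8 on the WT arrays. S100a9 gave 1.46, Ltf 1.36, Mmp8 0.59 and Itgam -0.51, and Mmp8 and Cd177 were under the control limit on each array. Macrophage and dendritic markers had 2 of 5 above 0 and a median of -0.03. WT replicate 1 was lowest both for the neutrophil markers and for the mean of the proteasome members. Without it the members' median was 0.07 with 29 of 39 above 0. The Gapdh control probe sets at the 2 ends of the transcript differed by 2.14 and 2.17 on the arrays labelled Alox15-/- and 2.37 and 2.39 on the WT arrays. For the beta-actin controls the same difference was -0.13 and -0.28 on the arrays labelled Alox15-/- and -0.23 and -0.19 on the WT arrays, which overlap. The part of cell composition or RNA quality in the members' offset was not tested. In bulk RNA a different share of cells and a different amount per cell cannot be told apart.

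**Figure D5:**
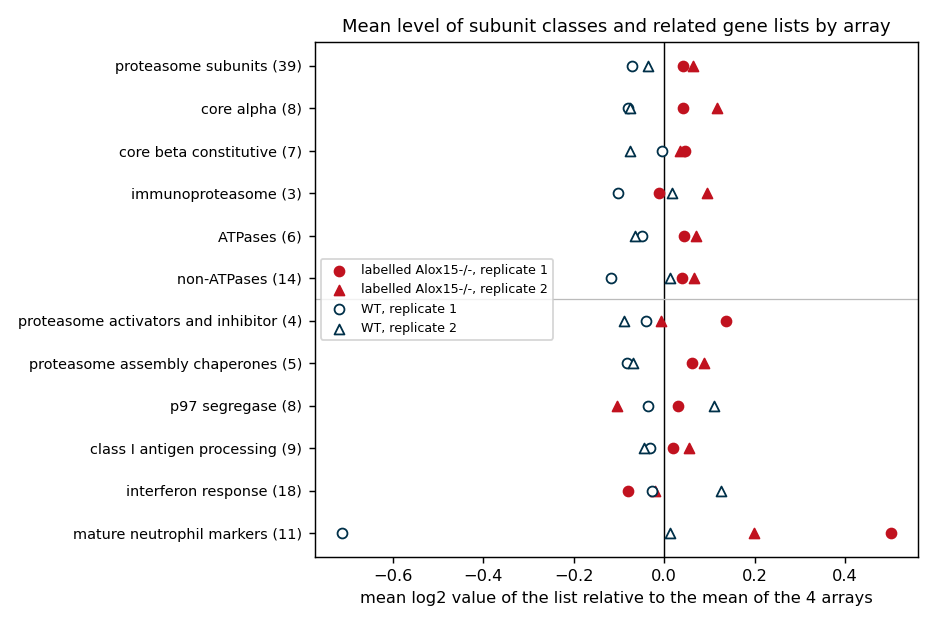
Mean log2 level of each subunit class and related gene list on the 4 arrays, relative to each gene's mean over the arrays, with the number of genes in brackets. Filled red symbols are the arrays labelled Alox15-/- and open symbols WT; the proteasome subunits span -0.07 to 0.06, and the mature neutrophil markers -0.71 to 0.50.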

How the data were processed

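Each probe set had 1 value on each of the 4 arrays. The deposited table holds log2 values that the authors made with Affymetrix Expression Console 1.1 and RMA, per the submitters' processing notes. RMA subtracts background, quantile-normalizes arrays and summarises probe sets. No genome build is given in the sources used here. Each array takes 1195 to 1228 distinct values, so small differences are coarse. Per the labels' protocols a whole-transcript sense labelling kit was used, and which strand was hybridised is not given.

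Of 45101 probe sets, 34958 had 1 gene symbol in the platform annotation and the brightest on average was kept for each of 18194 genes. The arrays labelled Alox15-/- were set against WT by limma (version 3.58.1, R version 4.3.3) through its moderated linear fit, two-sided, with Benjamini-Hochberg adjustment over all genes and a threshold of 0.05, tested on simulated data. Replicate numbers did not pair the arrays (correlation of deviations -0.02). Every member may be named, with up to 4 genes of each other list by smallest p. Tap1, Nfe2l1, Cd177, Cd3e, Ms4a1 and Kit were named outside that rule or as marker checks. Members and lists were chosen with earlier results of these data known. Of 101 list entries 84 were measured. Promoters are RefSeq's, GRCm38.p6. Alternatives covered normalization, dim genes, probe set choice, prior variance, a replicate block and each array left out. Figures used matplotlib 3.10.9.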

Additional observations from a re-analysis of the deposited data

How the results depend on the processing

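No member passed limma's adjusted threshold under any alternative run, and the members' median difference stayed above 0 in each. Leaving out genes with a mean under 8 was chosen after seeing the data. It also took Alox15 out of the test, as its mean over the 4 arrays was under 8. The count called without those genes therefore says nothing about Alox15. Over all genes the count called was 1, against 2 with the second highest probe set, 22 with a mean-dependent prior variance, 0 without genes of mean under 8 and 0 without any 1 array, where the group with 1 array left borrows the spread of the other. Leaving out 1 array, the median ran from 0.07125 to 0.11 for all members, 0.02125 to 0.13 for constitutive beta, 0.03125 to 0.19 for immunoproteasome and 0.08563 to 0.11 for ATPase genes. The lowest constitutive beta value came without Alox15-/- replicate 1, and the lowest immunoproteasome value without WT replicate 1. Members above 0 numbered 27 to 32 in those fits. Psmb9 minus Psmb6 ran from -0.18 to 0.25 without 1 array, Psmb8 minus Psmb5 from -0.04 to 0.27, Psmb10 minus Psmb7 from -0.41 to -0.155 (the last without WT replicate 2), and Psmb8 minus Psmb5 was 0.30 with the second highest probe set. A replicate block, which the replicate numbers do not justify, cannot move a difference in this balanced design, so its median of 0.09 says nothing about stability. It gave 0 members called. With the mean of all probe sets the sign turned for Psma3 (0.02812), Psmd11 (0.02031), Psmd13 (-0.118) and Psmd2 (-0.07813), and with the second highest for Psma3 (0.06187) and Psmd2 (-0.23). The causes were not tested. Of 23 members that kept their sign without any 1 array, 15 moved by over 1.5 times in at least 1 such fit. With 1 array left out the sign turned in part of the fits for these members, whose differences ran as follows: Psma3 from -0.05125 to 0.04, Psma6 from -0.0325 to 0.06, Psma7 from -0.000625 to 0.1119, Psmb10 from -0.1225 to 0.115, Psmb11 from -0.3262 to 0.1788, Psmb3 from -0.02625 to 0.2013, Psmb4 from -0.0625 to 0.065, Psmb5 from -0.125 to 0.145, Psmb6 from -0.02 to 0.21, Psmc6 from -0.005 to 0.03, Psmd10 from -0.3025 to 0.225, Psmd12 from -0.1825 to 0.1438, Psmd13 from -0.1075 to 0.11, Psmd2 from -0.00625 to 0.1563, Psmd5 from -0.1212 to 0.02875, Psmd9 from -0.0375 to 0.3425.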
